A study of Mus musculus with 9 samples.

Results

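The sirtuins are a family of lysine deacylases that need NAD to work, and the mouse genome encodes 7 of them, Sirt1 to Sirt7. Their transcripts were examined in mouse oocytes that had finished growth but not resumed meiosis (germinal vesicle stage), with and without deletion of Mtor, the kinase of the mTOR complexes. The members were taken by name, and each of the 7 had a row among the 24228 genes of the deposited table. The family was chosen by measured values: Sirt1 had been called higher in MG than in WT and MZ, the groups of the next paragraph, in an earlier look at the same libraries. Its values there are therefore given as a description and support nothing further.

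Oocytes were collected from large antral follicles of C57BL/6 females given 5 IU of PMSG, a gonadotropin that drives follicle growth, 46 h before they were killed. WT is the wild type, with 3 libraries. In MG (3 libraries) Mtor was deleted in the oocyte by Cre recombinase under the Gdf9 promoter, and in MZ (3 libraries) by Cre under the Zp3 promoter. Both promoters are active in oocytes, and Gdf9-Cre is active in primordial follicles already, Zp3-Cre once the oocyte has begun to grow. Whether the WT females carried floxed alleles or Cre, and how many oocytes or females went into a library, does not stand in the sources used here. Per the sample labels the females were 6 months old, whereas the design text says 23 days. Nothing says that the libraries of a group came from separate females, so a p-value here reflects only how far these libraries scatter, part of which may be technical.

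Sirtuins couple the removal of acyl groups from lysines to the cleavage of NAD, so their activity follows the supply of that cofactor. SIRT1, SIRT6 and SIRT7 are mainly nuclear and act on histones, transcription factors and ribosomal DNA, SIRT2 is mainly cytoplasmic and acts on tubulin among others, and SIRT3, SIRT4 and SIRT5 are mitochondrial. In oocytes the family has been studied mainly for redox balance, spindle assembly and ageing. The mTOR complexes respond to nutrients and growth factors, and sirtuins respond to the energy state through NAD.

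The promoter of Sirt1 is shown because Sirt1 is the member whose transcript differed most between the groups. The 300 bases are chr10:63338986-63339285 (GRCm38.p6, minus strand, from RefSeq), which reach from 250 bases before the start site to 50 bases from it on. The start site is the end of the Sirt1 locus in the deposited table, and the GENCODE gene reaches farther upstream. Capitals mark the letters CACGTG, an E-box, which occur at 2 places.
Sirt1 promoter: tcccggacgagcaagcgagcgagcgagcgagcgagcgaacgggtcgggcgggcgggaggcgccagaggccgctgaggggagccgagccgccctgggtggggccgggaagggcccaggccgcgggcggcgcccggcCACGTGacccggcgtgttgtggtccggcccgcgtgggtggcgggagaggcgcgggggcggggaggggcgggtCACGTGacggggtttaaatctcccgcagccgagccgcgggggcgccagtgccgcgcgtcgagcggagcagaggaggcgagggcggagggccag

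Of the promoter windows of the family, 9 windows for 7 genes, the Sirt1 window was the only one that held an E-box, searched on both strands. Over all 32851 windows of this length 7.15% held one. The first E-box of Sirt1 began 115 bases before the start site (position -115) and the second at -43. The second lies inside a match to the core of the CLEAR motif of lysosomal genes, which 0.326% of all windows held. The words TGACGTCA (cAMP response element) and TTGTTTAC (FOXO) were in none of the 9 windows, and 1.79% and 1.23% of all windows held them. GGGCGG, the Sp1 GC box, occurred at 7 places in the Sirt1 window and at 4 in a window of Sirt3. A window each of Sirt2, Sirt5, Sirt6 and Sirt7 held it at 1 place, and 35.7% of all windows held it. The Sirt1 window had a GC content of 79% with 47 CG pairs, against medians of 52.7% and 7 over all windows. The windows of the other members ran from 50% (Sirt2) to 64.7% (Sirt3). These are matches of letters, not binding sites.

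The deposited values are FPKM, fragments per kilobase of transcript scaled to the fragments of the library, which allow levels to be compared between genes. An estimated 580400 to 1043600 fragments per library lay on genes, and 1 fragment on a 1 kb transcript was worth 1.32 to 2.38 FPKM, so that several sirtuins rest on few fragments. All 16 oocyte markers were at 1 FPKM or more in every library, and they summed to 40995 to 49488 FPKM in WT, 23704 to 43633 in MG and 48341 to 50737 in MZ. The 15 markers of granulosa and cumulus cells summed to 20.3 to 33.6 FPKM in WT, 22.8 to 38.7 in MG and 23.1 to 28.3 in MZ, with Foxl2, Amhr2 and Slc38a3 at 0 in all libraries. Of the 15, 1 was at 1 FPKM or more in every WT library, 4 in every MG library and 2 in every MZ library. The 17 markers of theca, stroma, endothelium and blood summed to 41.5 to 81.5, 48.0 to 89.8 and 26.2 to 94.2 FPKM in the same order, with Lhcgr at 0 throughout. Of the 17, 5, 8 and 5 were at 1 FPKM or more in every library of WT, MG and MZ. The part of such cells in the results below was not tested. The FPKM of Mtor averaged 3.18 ± 0.20 for WT, 5.29 ± 0.68 for libraries labelled MG and 5.21 ± 1.18 for those labelled MZ (SD, n = 3 each); it counts the whole gene, reads outside the deleted part included, and so does not check the deletion. A lower level in these bulk samples can mean fewer expressing cells or less RNA per cell, which cannot be told apart.

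Sirt1 encodes the nuclear deacetylase of histones, p53 and FOXO factors. It lies on chromosome 10 (63319005 to 63381704, GRCm38, minus strand, protein coding) and the annotated transcript used here has 9 exons. The antisense gene Gm16145 (from 63353853 on) overlaps this annotated stretch and was not analysed here. It lies outside the Sirt1 locus of the deposited table, which ends at 63339035. The level of Sirt1 was 4.13, 7.93 and 5.27 FPKM in the WT libraries, 25.6, 19.4 and 21.7 FPKM in the MG libraries and 3.00, 4.61 and 4.28 FPKM in the MZ libraries. Every MG value was above every WT and MZ value, and the lowest MG value was above the highest WT value. WT and MZ overlapped. The group means were 5.78 ± 1.95, 22.3 ± 3.17 and 3.96 ± 0.85 FPKM (SD, n = 3 each), so that MG stood at 3.85 times WT and 5.62 times MZ. About 30.4, 147.5 and 25.6 fragments in all lay behind the 3 means. On the log2(FPKM + 1) scale MG lay 1.81 ± 0.31 above WT and 2.23 ± 0.31 above MZ (SE). The FPKM sum was lowest in MG 3 (428329). When MG 3 was left out, the 2 differences were 1.82 and 2.25. The difference of MZ from WT was -0.43 ± 0.31 and did not pass (limma adjusted p = 0.86).

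**Figure D1:**
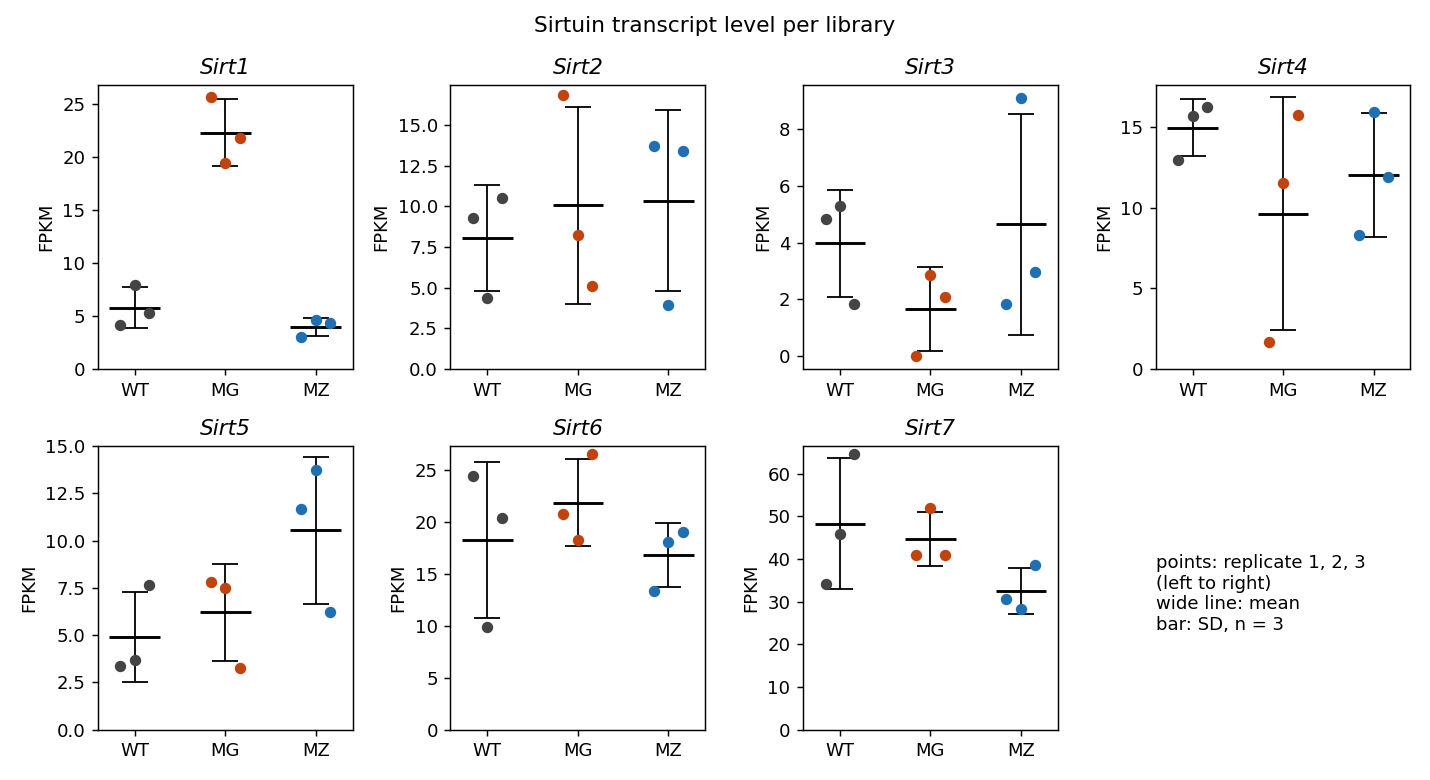
FPKM of each sirtuin gene (vertical axes from about 0, own scale per panel) in the 3 libraries of WT, MG and MZ; points are libraries, wide lines means, thin bars SD. The 3 MG points of Sirt1, from 19.4 to 25.6 FPKM, stand above all other points of that gene, while the groups of Sirt2 to Sirt6 overlap.

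Sirt7, which encodes the nucleolar deacetylase linked to RNA polymerase I, was the most abundant member in each group. It lies on chromosome 11 (120618372 to 120625240, minus strand). Its level was 34.3, 45.8 and 64.7 FPKM in WT, 41.1, 52.0 and 40.9 in MG, with 30.8, 28.2 and 38.6 in MZ. The MG values lay within the WT range, and all 3 lay above the 3 MZ values. The difference of MG from MZ did not pass (log2 0.45 ± 0.25, SE, limma adjusted p = 0.38). That of MZ from WT was -0.52 ± 0.25 and did not pass either (adjusted p = 0.79, limma). For MG against WT it was -0.07, and 0.31 with a common FPKM sum per library. On the same strand, the annotated 3′ end of Mafg overlaps the start of Sirt7, and Mafg averaged 9.87 ± 7.53, 7.85 ± 1.32 and 11.8 ± 3.23 FPKM in WT, MG and MZ (SD, n = 3 each). Mir6936, inside Sirt7, was listed at 0.

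Sirt6, whose product acts on chromatin in DNA repair and on histone H3, followed at 24.4, 9.89 and 20.3 FPKM in WT, 20.7, 18.3 and 26.5 in MG, with 13.3, 18.1 and 19.0 in MZ. It lies on chromosome 10 (81621785 to 81627797, minus strand), and no other annotated gene overlaps it. The 3 groups overlapped, and the widest spread was within WT, where WT 1 was 2.47 times WT 2. The log2 difference was 0.32 ± 0.33 for MG against WT (SE, limma adjusted p = 0.65) and -0.04 ± 0.33 between MZ and WT (adjusted p = 1, limma). For MG against WT it turned to -0.05 without WT 2 and was 0.57 without WT 1, and for MZ against WT it was -0.40 and 0.21.

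Sirt2, the cytoplasmic member, was at 9.27, 4.34 and 10.5 FPKM in WT, 16.8, 8.26 and 5.12 in MG, with 13.7, 3.92 and 13.4 in MZ. The groups overlapped throughout, and the ratio of the highest to the lowest library was 2.42, 3.29 and 3.50 in the same order. The log2 difference was 0.23 ± 0.53 for MG and 0.24 ± 0.53 for MZ against WT (SE; limma adjusted p = 0.87 and 0.96). Without WT 2 they turned to -0.12 and -0.10, and without MG 1 that of MG turned to -0.19. The gene lies on chromosome 7 (28766735 to 28788661, plus strand), where its start overlaps that of Nfkbib on the other strand. Nfkbib averaged 13.3 ± 3.37, 13.3 ± 3.05 and 15.5 ± 8.03 FPKM in WT, MG and MZ (SD, n = 3 each). Gm19897, listed at the same locus, was at 0 in all libraries.

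Of the mitochondrial members, Sirt4, which acts on glutamate and fatty acid metabolism, was the most abundant in WT. Its level was 12.9, 15.7 and 16.3 FPKM in WT, 1.66, 11.5 and 15.7 in MG, with 8.28, 15.96 and 11.9 in MZ. The lowest MG value was that of MG 1, which rests on about 1.26 fragments. MG 2 (11.5 FPKM) was also below every WT value, and MG 3 (15.7 FPKM) lay within the WT range. The log2 difference of MG from WT was -0.95 ± 0.57 (SE, limma adjusted p = 0.42); without MG 1 it was -0.14. Sirt4 lies on chromosome 5 (115478010 to 115484725, minus strand).

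Sirt3, the main mitochondrial deacetylase, was the least abundant member in WT and in MG. It was at 4.83, 5.28 and 1.82 FPKM in WT, listed at 0 in MG 1 and at 2.87 and 2.07 in the other MG libraries, and at 1.85, 9.11 and 2.96 in MZ. Only about 4.55 fragments lay behind the MG mean, and the groups overlapped. The log2 difference of MG from WT was -1.04 ± 0.63 (SE, limma adjusted p = 0.42). It was -0.45 without MG 1 and -2.10 with a pseudocount of 0.1 in place of 1. The gene lies on chromosome 7 (140863666 to 140882309, minus strand) and overlaps Ric8a and Psmd13 on the other strand. A row under the name Ric8 shares the locus of Sirt3 in the deposited table. It stood at 0.68, 0 and 0.77 FPKM in WT, 3.12, 3.02 and 2.19 in MG, with 0.78, 1.00 and 0.62 in MZ, and did not pass (limma adjusted p = 0.13 for MG against WT). Psmd13 averaged 3.67 ± 3.78, 4.73 ± 0.86 and 1.87 ± 1.21 FPKM in WT, MG and MZ (SD, n = 3 each). How the authors' counting treated strand does not stand in the sources used here, so reads of the overlapping stretches could have been split between the genes.

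Sirt5, which removes succinyl, malonyl and glutaryl groups from mitochondrial proteins, was at 3.38, 3.69 and 7.66 FPKM in WT, 7.82, 7.52 and 3.26 in MG, with 11.7, 13.7 and 6.22 in MZ. The MZ libraries 1 and 2 held the 2 highest values, and MZ 3 fell within the WT range. MZ averaged 10.5 ± 3.89 FPKM and WT 4.91 ± 2.38 (SD, n = 3 each), on about 24.1 and 9.18 fragments. The log2 difference was 0.97 ± 0.43 (SE), with an unadjusted p of 0.044 and a limma adjusted p of 0.78. Sirt5 lies on chromosome 13 (43365496 to 43395203, plus strand).

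In WT the order of the mean levels was Sirt7, Sirt6, Sirt4, Sirt2, Sirt1, Sirt5 and Sirt3. The ranges of the 3 libraries did not overlap between Sirt7 and Sirt6 or between Sirt4 and Sirt2, and did between all other neighbours. Sirt7 exceeded 84.8% of tested genes in WT, Sirt6 70.6%, Sirt1 48.1% and Sirt3 39.9%. In MZ the order was Sirt7, Sirt6, Sirt4, Sirt5, Sirt2, Sirt3 and Sirt1, and only Sirt7 and Sirt6 had ranges that did not overlap. In MG the order was Sirt7, Sirt1, Sirt6, Sirt2, Sirt4, Sirt5 and Sirt3. There Sirt1 exceeded 74.3% of tested genes, its range overlapped that of Sirt6 and lay below that of Sirt7.

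The 7 levels added up to 93.3, 92.7 and 126.6 FPKM in the WT libraries, 113.8, 119.8 and 115.3 in MG, with 82.6, 93.6 and 96.3 in MZ. On this scale the MG sums lay within the WT range and above the MZ sums. Taken relative to the FPKM sum of each library, all 3 MG sums lay above every WT and MZ sum. With that scaling the median log2 difference of all tested genes was 0.36 for MG against WT and 0.39 for MG against MZ. These sums include Sirt1, for which the family was chosen, and were not compared without it on this scale. Nothing is read from their order. Sirt1 made up 5.72 ± 2.46% of the sum in WT, 19.2 ± 3.20% in MG and 4.33 ± 0.65% in MZ (SD, n = 3 each). Sirt7 made up 45.8 ± 7.86%, 38.3 ± 4.41% and 35.8 ± 5.11%. Without Sirt1 the deposited FPKM values added up to 98.4 ± 19.98 FPKM in WT, 94.1 ± 6.18 in MG and 86.9 ± 6.48 in MZ, and the ranges of the groups overlapped.

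**Figure D2:**
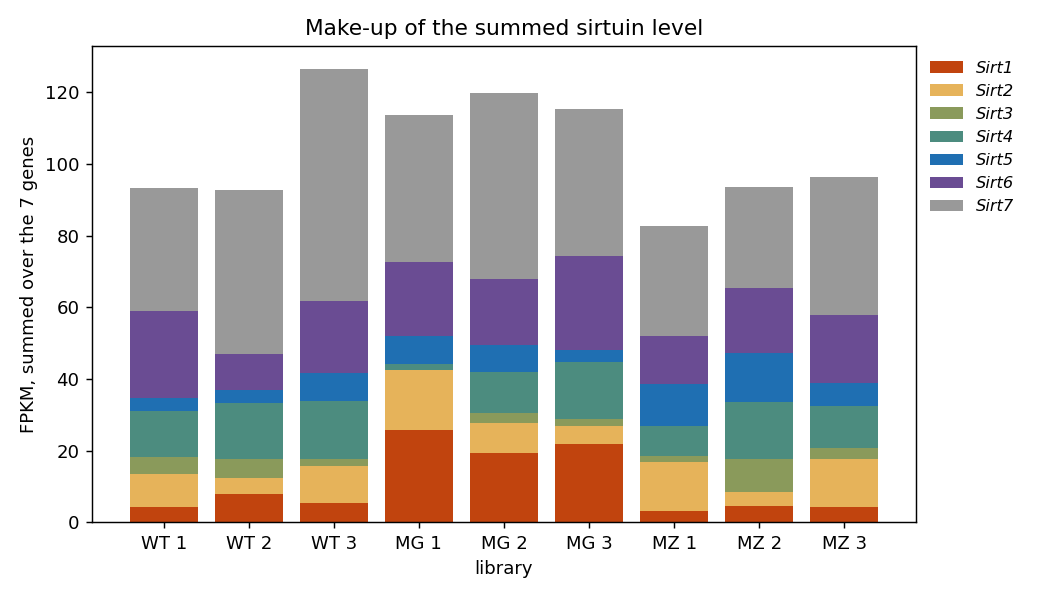
Summed FPKM of the 7 sirtuin genes (vertical axis) in each of the 9 libraries, stacked by gene. The Sirt1 part is 16.2% to 22.5% of the bar in MG libraries and at most 8.56% in WT and MZ libraries.

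Differences between groups were tested for 10801 genes in 1 limma fit over the 9 libraries, and all 7 members were among them. For MG against WT, 1 of the 7, Sirt1, was among the genes with an adjusted p under 0.05, and 0.343% of all tested genes were. No overlap between the 3 MG and 3 WT values was seen for 1 of 7 members, beside 21.5% of all genes. For MG against MZ the same member was called (0.13% of all genes), and 2 of 7, Sirt1 and Sirt7, did not overlap (25.2% of all genes). The rule that chose the family used these contrasts, so nothing is read from these counts. Sirt1 was not called for MG against WT when any 1 of the 9 libraries was left out, and for MG against MZ not without WT 3, MG 2, MG 3, MZ 1, MZ 2 or MZ 3. For MZ against WT 0 of 7 members passed (0.037% of all genes), 1, Sirt5, had an unadjusted p under 0.05 (6.3% of all genes) and 0 lacked overlap (12.2% of all genes).

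The median log2 difference of the 7 members was 0.23 for MG against WT, with 4 positive and 3 negative, and -0.04 for MZ against WT, with 3 positive and 4 negative. Over all tested genes the medians were 0.04 and 0.01. The lowest limma adjusted p among Sirt2 to Sirt7 was 0.42 for MG against WT, 0.78 for MZ against WT and 0.38 for MG against MZ. The standard errors of these 6 genes, 0.25 to 0.63 on the log2 scale, leave room for differences that were not detectable at this depth. The calls over all genes were 20 higher and 17 lower in MG than in WT. They were 61 and 5 when libraries were brought to a common FPKM sum, 20 and 10 with upper quartile scaling, and 16 and 5 with quantile normalization. The balance turned to 27 higher and 60 lower with a filter of at least 1 FPKM in all 9 libraries, 11 and 21 without MG 1, and 8 and 15 without MG 3. For MG against MZ they were 8 and 6, compared with 25 and 6 for the common FPKM sum and 9 and 4 with quantile normalization. Here the balance turned to 76 and 199 with the filter on all 9 libraries, 33 and 126 with a replicate block, 19 and 54 with only the 2 groups in the fit, 54 and 159 without WT 1, and 41 and 169 without MG 1. For MZ against WT they were 3 and 1, and 1 and 0 with either of the same 2 settings.

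**Figure D3:**
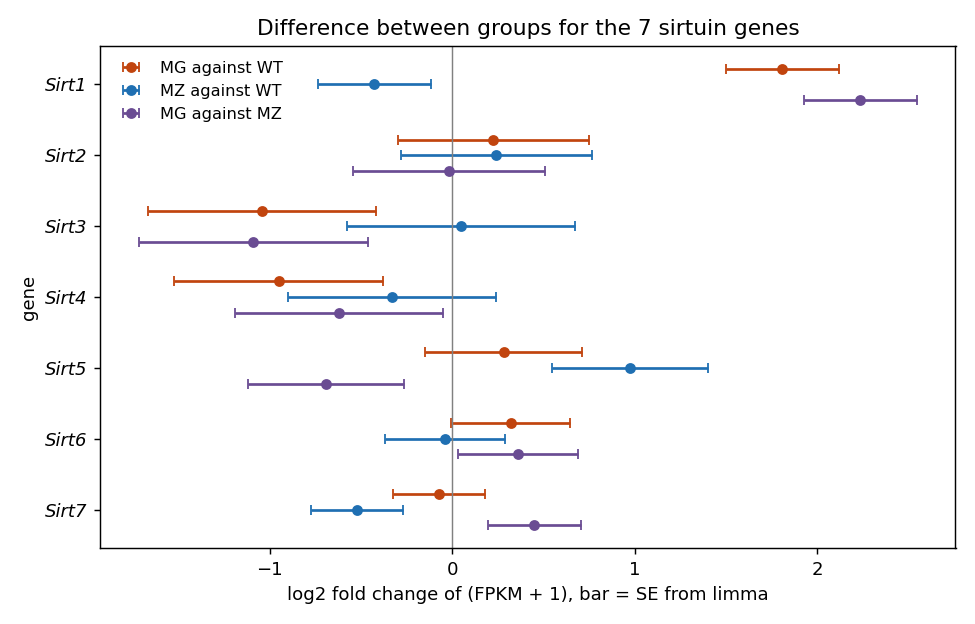
Log2 difference of (FPKM + 1) between groups (horizontal axis) for each sirtuin gene, with bars of 1 SE from limma, for the 3 pairs of groups. Sirt1 stands at 1.81 for MG against WT and 2.23 for MG against MZ, and the other genes lie between -1.09 and 0.97.

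The authors' deposited table gives Sirt1 a log2 fold change of 1.94 for MG over WT (q = 0.00189) and of -2.48 for MZ over MG (q = 0.000639). The authors' deposited table lists a Cuffdiff p-value of 1 for Sirt1 and Sirt6 in MZ over WT and for Sirt2 to Sirt5 in each pair of groups. Such a value can stand for a gene that was not tested, and it is listed beside log2 fold changes of up to 1.51 (Sirt3, MZ over MG). Nothing is read from it. For Sirt7 the authors' deposited table gives -0.57 for MZ over WT, with p = 0.022 and q = 0.21. Of the 10801 genes, 4.13% have a q under 0.05 for MG and WT in the authors' deposited table, 9.05% for MG and MZ and 0.787% for MZ and WT.

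The genes whose pattern over the 9 libraries was most like that of Sirt1 were looked for by Pearson's r on the log2(FPKM + 1) scale. The search covered 5705 tested genes with a mean of at least 5 FPKM, and genes with a clone name (such as Rik, Gm or LOC) were left out. Those most alike were Ddx4, the germ-cell RNA helicase (r = 0.985), B3gnt2, a glycosyltransferase (0.955), Zmym1, a zinc finger gene (0.953), Gbp7, an interferon-inducible GTPase (0.946), Zfp707, a zinc finger gene (0.945), and Arl6ip6 (0.943). Ddx4 stood at 4.35, 7.16 and 4.94 FPKM in WT, 24.3, 22.02 and 20.7 in MG, with 3.36, 5.93 and 6.02 in MZ. B3gnt2 stood at 60.3, 66.1 and 62.1 FPKM in WT, 157.7, 135.3 and 110.4 in MG, with 57.0, 66.6 and 66.6 in MZ. In each of the 6 genes every MG value was above every WT and MZ value, and WT 2 was the highest WT library, as in Sirt1. All 9 points share the same libraries and the difference of MG, and likeness over them was the rule of choice.

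**Figure D4:**
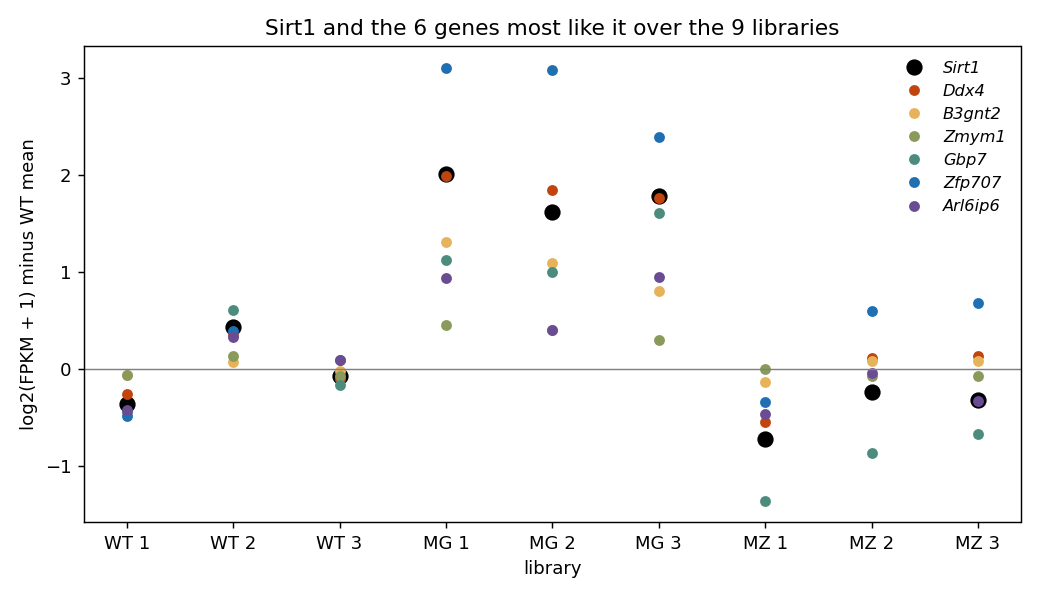
Level of Sirt1 and of the 6 genes most like it in each library, as log2(FPKM + 1) minus the mean of the WT libraries of that gene (vertical axis). All 7 genes are above 0 in the 3 MG libraries, by the most in Zfp707 and by the least in Zmym1.

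Genes that work with the sirtuins were followed in 8 lists with 196 genes, of which 143 passed the filter. A gene could pass through 1 group alone, which favours a higher level in that group. Nothing is therefore read from the counts of signs in the lists below. By limma 0 of the 143 passed in any of the 3 comparisons. An unadjusted p under 0.05 was found for 24 of them in MG against WT, 11 in MZ against WT and 24 in MG against MZ. As shares these are 16.8%, 7.69% and 16.8%, beside 17.7%, 6.3% and 17.6% of all genes. The list medians for MG against WT moved with the scaling of the libraries: the median of all genes was 0.04 as deposited, 0.36 with the common FPKM sum and 0.01 with quantile normalization. With quantile normalization the median was 0.24 for NAD synthesis, 0.24 for the zinc-dependent deacetylases, 0.25 for the regulators of SIRT1, 0.15 for mitochondrial substrates and 0.16 for partners of SIRT6 and SIRT7. With the common FPKM sum the same 5 medians were 0.70, 0.71, 0.64, 0.51 and 0.60. The remaining lists were other NAD consumers, FOXO target genes and substrates of SIRT1 and SIRT2. Their medians were 0.05, 0.018 and -0.095 with quantile normalization and 0.59, 0.44 and 0.22 with the common FPKM sum.

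The genes of NAD synthesis and phosphorylation, which supply the cofactor, had 13 of 21 members tested. Of these 10 were positive and 3 negative for MG against WT (median 0.49, beside 0.04 for all genes), and 7 and 6 for MZ against WT (median 0.44, beside 0.01). Over all genes 53.0% and 51.1% were positive. Tdo2 and Nmrk1 were at 0 in every WT library, and Nadk2 was at 0 in WT 2 and WT 3. These genes passed the filter through MG or MZ, which favoured a positive sign for MG against WT. Nothing is read from the counts and medians of this list. Nadk2, the mitochondrial NAD kinase, stood at 1.81, 0 and 0 FPKM in WT, 3.99, 4.89 and 3.30 in MG, with 0.64, 0.41 and 0 in MZ (limma adjusted p = 0.11 for MG against WT). Its WT mean rests on about 3.28 fragments. Tdo2, which starts the path from tryptophan, was listed at 0 in each WT library. It had 1.55, 4.79 and 2.60 FPKM in the MG libraries (limma adjusted p = 0.13 for MG against WT) and 1.55, 2.99 and 0 in the MZ libraries. Nampt, Nadk and Slc25a51 were picked for their roles after their values were seen. Nampt, the rate-limiting enzyme of NAD salvage, had 0.78 ± 0.58, 1.42 ± 0.26 and 1.496 ± 0.52 FPKM in WT, MG and MZ (SD, n = 3 each). Nadk, the cytosolic NAD kinase, had 38.2 ± 8.84, 27.1 ± 6.18 and 51.3 ± 6.01 FPKM. Slc25a51, the mitochondrial NAD carrier, had 17.4 ± 2.75, 17.7 ± 3.26 and 15.7 ± 2.35 FPKM.

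Other enzymes that consume NAD had 11 of 18 members tested, 8 positive and 3 negative for MG against WT (median 0.34, which was 0.05 with quantile normalization and 0.59 with the common FPKM sum). Tiparp, a mono-ADP-ribosyltransferase, was far above the sirtuins in level, with 432.3, 416.4 and 519.9 FPKM in WT, 238.0, 285.0 and 290.5 in MG, with 353.2, 388.2 and 416.7 in MZ. Its MG values lay below all WT and MZ values, and the log2 difference from WT was -0.75 (limma adjusted p = 0.081). Tnks2, a tankyrase, had 3.69 ± 1.82 FPKM in WT, 7.51 ± 2.67 in MG and 4.13 ± 0.88 in MZ (SD, n = 3 each, limma adjusted p = 0.26 for MG against WT).

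The zinc-dependent histone deacetylases, the other deacetylase family, had 6 of 11 members tested. Their highest WT mean was that of Hdac2, 5.70 ± 1.37 FPKM (SD, n = 3), close to that of Sirt1 (5.78 ± 1.95) and below the lowest WT library of Sirt4, Sirt6 and Sirt7. Hdac2 stood at 8.51 ± 1.08 FPKM in MG and 10.8 ± 6.65 in MZ. Hdac3 had 0, 4.604 and 0 FPKM in WT, 6.07, 1.87 and 5.43 in MG, with 1.22, 0 and 1.94 in MZ (limma adjusted p = 0.30 for MG against WT).

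Regulators of SIRT1 had 14 of 18 members tested, 9 positive and 5 negative for MG against WT (median 0.27). Prkaa2, a catalytic subunit of the AMP-activated kinase, stood at 2.06, 1.76 and 2.34 FPKM in WT, 3.43, 4.50 and 6.97 in MG, with 1.06, 1.19 and 1.05 in MZ. The 3 groups did not overlap, and neither difference passed (limma adjusted p = 0.22 for MG against WT and 0.084 for MG against MZ). Ccnb1, cyclin B1, had 888.4 ± 84.6 FPKM in WT, 551.3 ± 113.7 in MG and 776.8 ± 31.9 in MZ (SD, n = 3 each, limma adjusted p = 0.11 for MG against WT).

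Substrates of SIRT1 and SIRT2 had 31 of 40 members tested, 14 positive and 17 negative for MG against WT. Their median of -0.08 turned to 0.22 when libraries were brought to a common FPKM sum, where the median of all genes moved to 0.36. Stat3, a transcription factor of cytokine signalling, stood at 10.4, 14.8 and 11.3 FPKM in WT, 23.6, 20.96 and 22.5 in MG, with 17.2, 18.1 and 18.02 in MZ (limma adjusted p = 0.12 for MG against WT). Arntl, the clock factor BMAL1, had 24.8 ± 3.09 FPKM in WT, 15.3 ± 2.38 in MG and 18.3 ± 2.64 in MZ (SD, n = 3 each, limma adjusted p = 0.18 for MG against WT). FOXO target genes, which FOXO factors drive, had 12 positive and 11 negative members of 23 tested (median 0.22, which was 0.018 with quantile normalization and 0.44 with the common FPKM sum). Among them Ccng2, cyclin G2, had 3.89 ± 2.28 FPKM in WT, 8.83 ± 1.66 in MG and 9.35 ± 1.71 in MZ, and Cited2, a CBP-binding regulator, 68.6 ± 17.5, 42.3 ± 12.1 and 56.5 ± 5.40 FPKM (SD, n = 3 each); neither passed.

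Mitochondrial substrates had 26 of 34 members tested, 17 positive and 9 negative for MG against WT (median 0.15). Mrpl10, a protein of the mitochondrial ribosome, stood at 58.7, 27.1 and 36.9 FPKM in WT, 25.6, 22.1 and 15.1 in MG, with 70.7, 59.9 and 50.4 in MZ. Its MG and MZ values did not overlap (log2 -1.50, limma adjusted p = 0.073). Ogg1, a DNA glycosylase, had 3.66 ± 1.10 FPKM in WT, 0.87 ± 0.84 in MG and 1.80 ± 0.80 in MZ (SD, n = 3 each, limma adjusted p = 0.16 for MG against WT). Partners and substrates of SIRT6 and SIRT7 had 21 of 24 members tested, 14 positive and 7 negative (median 0.24). Ubtf, the RNA polymerase I factor UBF, stood at 0, 0.95 and 0.49 FPKM in WT, 6.52, 3.49 and 3.10 in MG, with 0.50, 0.65 and 0.80 in MZ (limma adjusted p = 0.083 for MG against WT and 0.085 for MG against MZ). Ubtf passed the filter through the MG libraries alone, which favoured its direction. Elk4, an ETS factor, had 3.47 ± 1.08 FPKM in WT, 7.69 ± 0.28 in MG and 6.48 ± 0.92 in MZ (SD, n = 3 each, limma adjusted p = 0.15 for MG against WT).

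**Figure D5:**
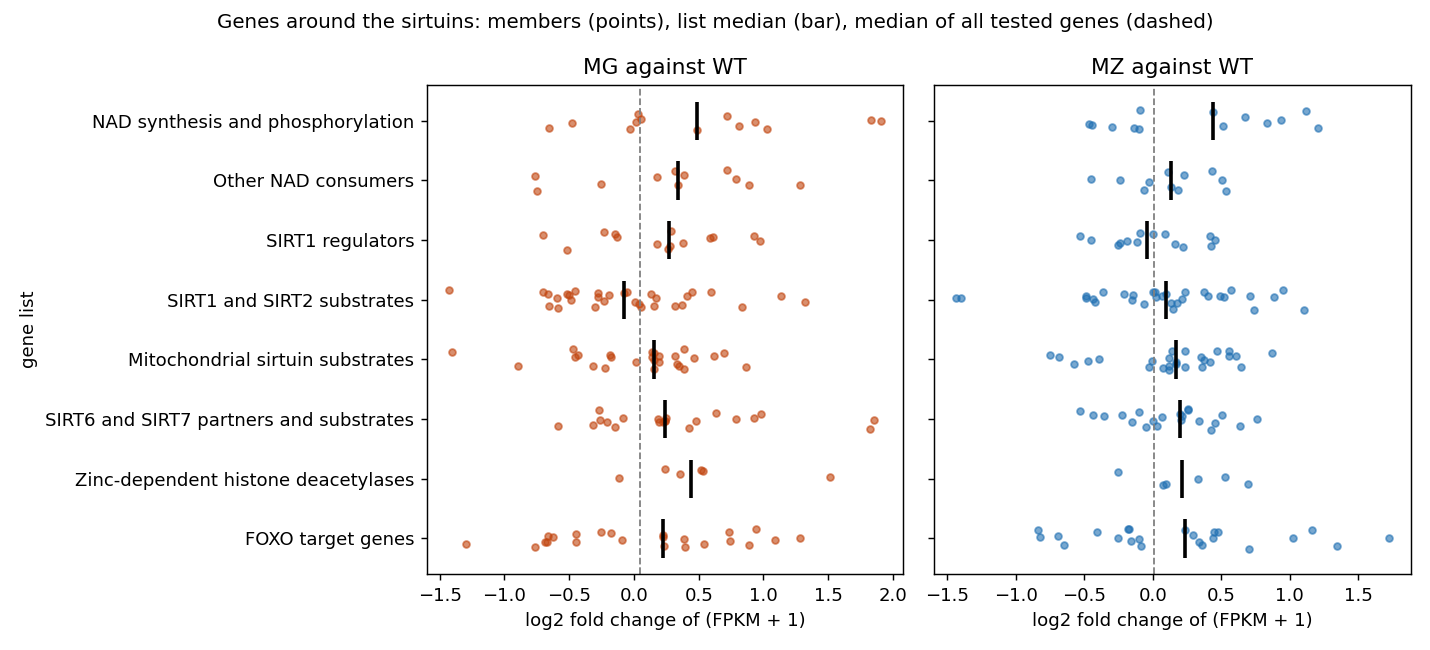
Log2 difference of (FPKM + 1) from WT (horizontal axes) for the tested members of the 8 gene lists, with MG on the left and MZ on the right; points are genes, black bars list medians, the dashed line the median of all tested genes. Points of each list lie on both sides of the dashed line, and 0 of them passed the limma test.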

How the data were processed

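Oocyte RNA was amplified with Smart-seq2 and read as 150 bp pairs, per the labels' protocols and the design text. The authors used TopHat2 2.0.13 for alignment (mm10) and Cufflinks 2.2.1 for the FPKM values, per the submitters' processing notes. The deposited table holds FPKM per gene and library and the authors' Cuffdiff log2 fold changes, p-values and q-values. Of 24255 rows, 27 with a date in place of the symbol were left out. Symbols were matched to GENCODE M21 (23105 of 24228).

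Genes with at least 1 FPKM in at least 3 libraries (10801) were fitted as log2(FPKM + 1) with limma 3.58.1 in R 4.3.3 (eBayes with a variance trend, 9 libraries in 1 fit, 6 residual degrees of freedom). Tests were two-sided, with Benjamini-Hochberg adjustment over all tested genes and a threshold of 0.05. The pseudocount of 1 understates changes of low genes. FPKM are not counts, and no count model was used. Fragments were estimated from the step of 1 fragment in 2231 genes with 1 transcript of at least 1500 bp; 77.8% to 86.1% of the low values lay within 15% of it. Fragment numbers of genes use annotated transcript lengths and are approximate. Reads without molecular identifiers are not independent molecules. The steps were tested on simulated data.

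The members and lists were chosen with earlier results of these data known. Named genes are the members, Mtor, genes overlapping a member, the 6 genes most like Sirt1, and list members that passed or, where none did, the 2 with the smallest p in MG against WT. Nampt, Nadk and Slc25a51 fall outside this rule and were picked for their roles after their values were seen; the genes most like the other members are not described. Alternatives covered the pseudocount, filter, scaling, variance model, groups in the fit, a replicate block and leaving out each library.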

Additional observations from a re-analysis of the deposited data

Results flagged for a closer look

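The Sirt1 values of MG and MZ differed from WT in opposite directions, and the MG and MZ libraries did not overlap. The log2(FPKM + 1) difference of MG from MZ was 2.23, which is the gap between the differences of MG (1.81) and of MZ (-0.43) from the same WT libraries. The difference of MZ did not pass its test, and WT and MZ overlapped. Sirt1 was chosen for this pattern, so the value is a description. The other 6 members were not flagged.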

How the results depend on the processing

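Sirt1 was 1 member called by limma for MG against WT, and 0 members were called with a pseudocount of 0.1, no filter, quantile normalization, only the 2 groups in the fit or a replicate block. Leaving out each library gave 0 to 0 members for MG against WT, 0 to 1 for MG against MZ and 0 to 0 for MZ against WT. For MG against MZ the call of Sirt1 was lost without WT 3, MG 2, MG 3, MZ 1, MZ 2 or MZ 3. In MG against WT its adjusted p ranged from 0.025 to 0.15 over 19 alternatives, 5 of them under the threshold, and its log2 difference from 1.35 to 2.17; in MG against MZ 13 of 19 were under it (0.012 to 0.16), with 1.603 to 2.63. Sirt2 to Sirt7 were called in 0 of their alternatives.

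All genes called for MG against WT (37) numbered 17 with no filter, 87 with FPKM of at least 1 in all 9 libraries, 66 with the same FPKM sum, 21 with quantile normalization, 5 with only the 2 groups, 13 with the replicate block and 3 to 32 without 1 library. For MG against MZ (14) they numbered 6 with a pseudocount of 0.1, 30 with 5, 9 with no filter, 275 with the filter on all 9 libraries, 31 with the same FPKM sum, 9 with no variance trend, 73 with only the 2 groups, 159 with the replicate block and 0 to 213 without 1 library. For MZ against WT (4) they numbered 2 with a pseudocount of 0.1 or no filter, 0 with the filter on all 9 libraries or the replicate block, 1 with the same FPKM sum or quantile normalization, 7 with no variance trend and 0 to 6 without 1 library. At an unadjusted p under 0.05, limma gave 1917, 1906 and 680 genes for the 3 comparisons in the same order. The cause of these shifts was not tested, beyond the fewer genes or samples in some settings. The labels do not say whether libraries of the same number shared anything beyond the number. The correlations of their deviations from the group means, over 9 pairs, ran from -0.070 to 0.073. With means of so few libraries, these correlations cannot decide it. Sirt3, listed at 0 in MG 1, left the tested genes under the filter on all 9 libraries. Sirt2, Sirt3 and Sirt5 rest on fewer than 30 fragments per group, which limits what can be seen.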

Other observations

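MG 1 and MZ 2 each held an extreme value of the 9 libraries in 4 of the 7 sirtuins. How often these libraries held the extreme value over all genes was not counted, so nothing about the sirtuins is read from this. MG 1 had the highest Sirt2 value of the 9 libraries (16.8 FPKM), the lowest Sirt4 value (1.66 FPKM) and the single Sirt3 value listed at 0. Its Sirt1 value (25.6 FPKM) was the highest of all. MG 1 also had the fewest estimated fragments on genes (580400), and its Sirt4 value rests on about 1.26 fragments. MZ 2, with the most fragments (1043600), held the lowest Sirt2 (3.92 FPKM) and Sirt7 (28.2 FPKM) values. It also held the highest Sirt3 (9.11 FPKM) and Sirt5 (13.7 FPKM) values.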
